A study of Mus musculus with 6 samples.

Results

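Cirbp and Rbm3 encode the cold-inducible RNA-binding proteins CIRBP and RBM3, and the levels of both mRNAs were compared between follicular B cells with and without myosin IIa. Both genes were picked by name, with the deposited comparison of the genotypes already known, and they are 2 of its 20458 gene names and 3 of its 25017 entries. Cirbp has 1 entry and Rbm3 has 2. Because the difference between the genotypes was used to choose these genes, that difference is given below as a description, without a test.

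The RNA came from follicular B cells of C57BL/6 mice, sorted as B220+AA4.1-CD23+CD21lo, with 3 samples of CD23Cre+Myh9wt/fl and 3 samples of CD23Cre+Myh9fl/fl animals, whose age and sex the labels do not give. All 6 samples carry CD23Cre, a transgene in which Cre recombinase follows the promoter of CD23 (Fcer2a), a gene that B cells switch on at the transitional stage. Cre removes the LoxP-flanked exon 3 of Myh9 from 1 allele in wt/fl and from both alleles in fl/fl cells, which makes the controls haploinsufficient for the myosin IIa heavy chain and not wild-type. The authors pooled the 3 samples of a genotype into 1 value per entry, in FPKM, a fragment count scaled by transcript length and library size, so the value in each sample, the spread between mice and the read depth are unknown, and no difference below can be set against replicate error.

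CIRBP and RBM3 are small proteins with 1 RNA recognition motif (RRM) at the amino terminus, which binds RNA, and a glycine-rich tail. Both mRNAs accumulate when cells are cooled mildly below body temperature and decline when cells are warmed, the opposite of the heat shock chaperones. Both proteins bind other mRNAs and are linked to their stability, translation and choice of polyadenylation site, and CIRBP enters stress granules and can act outside the cell as a danger signal.

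The coding sequences show how closely the pair is related. In GENCODE M21 (build GRCm38), Cirbp lies on chromosome 10 from 80165985 to 80172786 on the plus strand, and Rbm3 lies on the X chromosome from 8138975 to 8145880 on the minus strand. The first coding exon has 103 bases and the second has 107 bases in both genes. These exons encode most of the RRM and are shown from the start codon, with the bases that differ between the genes in capitals:
Cirbp: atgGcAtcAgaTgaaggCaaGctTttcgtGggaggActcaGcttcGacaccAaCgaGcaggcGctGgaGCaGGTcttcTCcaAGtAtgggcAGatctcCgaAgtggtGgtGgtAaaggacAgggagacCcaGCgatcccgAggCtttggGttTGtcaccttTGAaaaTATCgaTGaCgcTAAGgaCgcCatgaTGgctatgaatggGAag
Rbm3: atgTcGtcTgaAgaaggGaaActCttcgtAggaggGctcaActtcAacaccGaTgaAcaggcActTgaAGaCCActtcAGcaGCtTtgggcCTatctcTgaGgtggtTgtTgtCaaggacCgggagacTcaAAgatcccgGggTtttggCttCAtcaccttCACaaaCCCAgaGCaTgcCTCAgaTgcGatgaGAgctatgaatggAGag
Of the 210 bases, 148 are identical (70.5%) and 62 differ, 38 of them at the last position of a codon. The longest stretch without a difference has 11 bases, so the mRNAs of this pair are not near-identical copies that would share fragments. The whole coding sequence has 516 bases in Cirbp and 462 bases in the longer form of Rbm3.

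Cirbp was at 30.5 FPKM in wt/fl against 60.7 FPKM in fl/fl follicular B cells, 1.99 times as high without myosin IIa. Its single entry, P16321, lies on chromosome 10 from 79630585 to 79634398 in the coordinates of the deposited table (mm9). On the scale used for all genes, log2 of the ratio of FPKM + 1, the difference was 0.97. The level of Cirbp exceeded that of 74.2% of the 9879 compared genes (mean of both genotypes 1 FPKM or more) in wt/fl, and that of 88.1% of them in fl/fl.

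Rbm3 was the more abundant gene of the pair, with 325 FPKM in wt/fl against 462 FPKM in fl/fl cells when both entries were summed, 1.42 times as high in fl/fl. Its log2 ratio was 0.51, below the 0.58 that corresponds to 1.5 times. In wt/fl its level exceeded that of 98.2% of the compared genes, and it ranked 178 from the top. In fl/fl it ranked 145. Rbm3 stood at 10.7 times the level of Cirbp in wt/fl and at 7.60 times in fl/fl cells, so the gap between them was narrower in fl/fl, although the absolute difference between genotypes was larger for Rbm3 (137 FPKM) than for Cirbp (30.2 FPKM). In a bulk sample, more RNA in each cell and more cells that express a gene cannot be told apart.

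**Figure D1:**
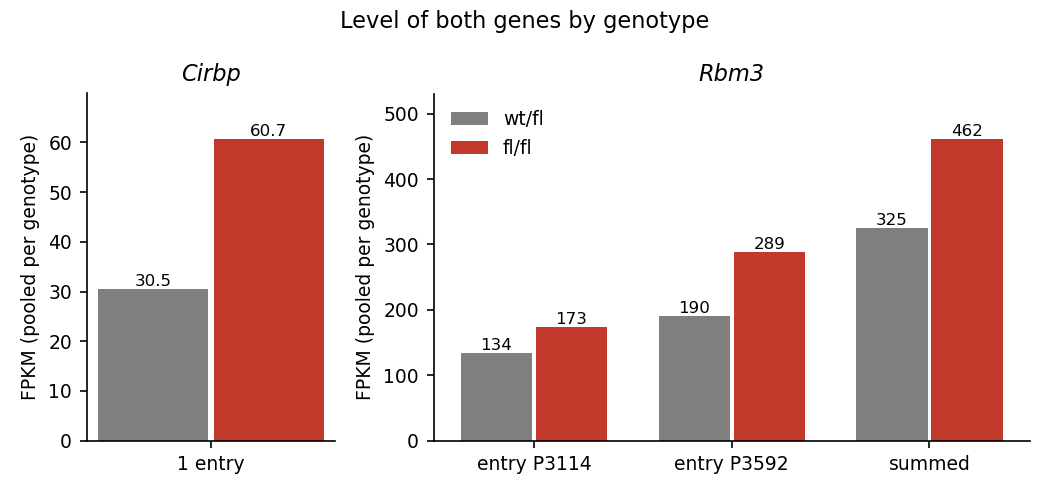
Bars give the FPKM of Cirbp (left) and of the entries of Rbm3 and their sum (right), pooled by the authors over 3 samples per genotype, with wt/fl in grey and fl/fl in red and no error bar because no spread is known. Every entry stands higher in fl/fl, and the axis of Rbm3 reaches several times that of Cirbp.

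The 2 entries of Rbm3 share the span 7716100 to 7725089 of the X chromosome (mm9). Entry P3114 was at 134 FPKM in wt/fl against 173 FPKM in fl/fl, 1.29 times as high, with a log2 ratio of 0.36. Entry P3592 was at 190 and 289 FPKM, 1.52 times as high, with a log2 ratio of 0.60, and was the only entry of Rbm3 past 1.5 times. Of all 11434 compared single entries, 2.86% were higher by as much and 3.37% lower. The second entry was the larger in both genotypes, with 58.6% of the Rbm3 signal in wt/fl and 62.5% in fl/fl. Both entries were higher in fl/fl, and the division of the gene between them differed by less than the levels did.

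The deposited table does not say which transcripts form each entry of Rbm3. GENCODE M21 lists 11 transcripts of Rbm3, of which 6 are protein-coding, and these 6 hold 2 distinct coding sequences of 462 and 459 bases. They differ only by 3 bases at the start of the last coding exon, on the X chromosome from 8143330 to 8143332 (GRCm38). The stretch around this site is shown with 30 bases on each side and the extra bases in capitals, because it is the only place where these coding sequences differ:
Rbm3 longer form: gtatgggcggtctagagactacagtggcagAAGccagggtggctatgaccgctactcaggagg
Rbm3 shorter form: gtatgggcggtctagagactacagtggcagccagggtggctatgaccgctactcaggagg
Apart from fragments that cross this site, only the untranslated ends of the transcripts can separate these 6 transcripts, and the sum over both entries does not depend on that division. Another 2 transcripts of Rbm3 are annotated as targets of nonsense-mediated decay, with another coding sequence of 270 bases that ends in a further exon. Cirbp has 7 annotated transcripts with 1 complete coding sequence among the protein-coding ones, and 1 entry.

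Processed pseudogenes, copies of an mRNA inserted elsewhere in the genome, are a limit for Rbm3. Rbm3-ps aligned to all 462 coding bases of Rbm3 with 99.4% identity, Gm10156 with 98.5% and Gm13624 with 96.1%, and Gm48583 aligned over 223 bases with 98.7%. None of these is an entry of the deposited table, so fragments that fit both the gene and a copy may have been assigned either way. For Cirbp, the best match in the annotated transcripts other than Rbm3 was Gm13624, with 71.4% identity over 255 bases. The antisense gene Rbm3os overlaps Rbm3 by 452 bases, and with no strand-marking step named for these libraries, fragments of that stretch cannot be assigned to one strand. The locus listed for each entry of Rbm3 spans 8990 bases (mm9), the same length that Rbm3 and Rbm3os jointly cover on GRCm38 (8138975 to 8147964). A listed locus can cover more than 1 gene, as Dos and Stk11 near Cirbp have the same one. The span therefore does not show whether the entries take in all of Rbm3os, only the overlap or neither. The part of Rbm3os in the values of Rbm3 was not tested. No annotated gene overlaps Cirbp.

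Of the 9879 genes, 78 (0.79%) were higher in fl/fl by at least 1.5 times and 151 (1.53%) were lower by as much. Cirbp was among the 78, and Rbm3 was not. A log2 ratio as high as that of Cirbp was found in 16 genes including itself, and the most abundant of the other 15 was Crisp3, a cysteine-rich secretory protein gene, with 6.59 FPKM in wt/fl against 14.1 FPKM in fl/fl. No other gene had both a ratio and a mean level as high as those of Cirbp. For Rbm3, 121 genes including itself had as high a ratio, and Cd180, a Toll-like receptor relative of B cells, was the only other one with as high a mean level. Neither member reached 2 times, which 0.0911% of the genes did upwards and 0.405% downwards. With the minimum mean raised to 5 FPKM, 0.336% were higher by at least 1.5 times and 0.866% lower, and with 25 FPKM, 7 of 3085 genes (0.227%) were higher and 26 (0.843%) lower. These comparisons use the same contrast that chose the genes, so nothing is read from them.

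**Figure D2:**
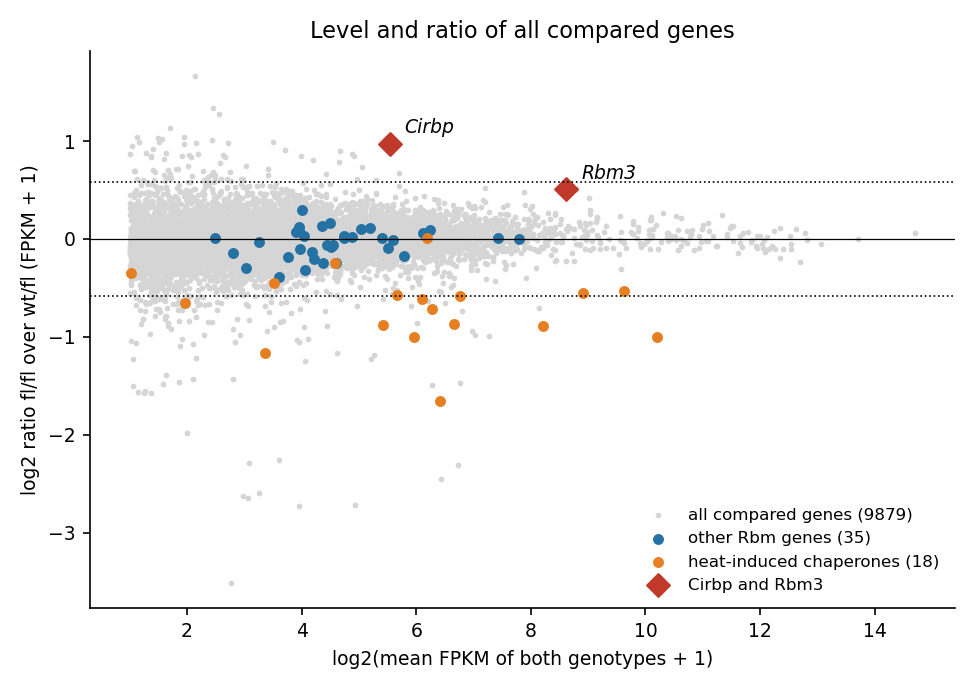
Each point is 1 of the 9879 compared genes, with the log2 of its mean FPKM + 1 on the horizontal axis and its log2 ratio of fl/fl over wt/fl on the vertical axis, and dotted lines at 1.5 times in either direction. Cirbp and Rbm3 (red) stand at 0.97 and 0.51, the 35 other Rbm genes (blue) lie around 0, and 17 of the 18 heat-induced chaperones (orange) lie below 0.

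The genes closest to each member in both levels were found by the distance between their log2(FPKM + 1) values over the pooled value of each genotype. For Cirbp these were Lta (39.2 FPKM in wt/fl against 62.9 in fl/fl), the gene of the cytokine lymphotoxin alpha, Acot13 (30.1 and 46.3), Isca2 (41.6 and 60.8), Cops5 (38.5 and 49.2) and Adh5 (41.2 and 55.6). Their log2 ratios were between 0.35 and 0.67, all under the 0.97 of Cirbp. For Rbm3 the closest was Cd180, at 365 and 521 FPKM with a log2 ratio of 0.51, followed by Gimap6, Uqcrh, Dazap2 and Nap1l1, whose log2 ratios were between 0.10 and 0.20. With 1 value for each genotype, such likeness rests on 2 numbers per gene.

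The closest relatives of both proteins were looked for by comparing the translated coding sequences of 21712 GENCODE genes. The best match of CIRBP was RBM3, with 75.6% identity over 86 residues. After this pair came the Rbmx group, whose founder encodes an RRM protein of the spliceosome. Rbmx was at 20.4 FPKM in wt/fl against 22.9 in fl/fl, with a log2 ratio of 0.16, and Rbmxl1, which encodes a near copy of it, was at 45.8 and 42.8 FPKM, with a log2 ratio of −0.10. Rbmxl2 had 0.0224 FPKM in wt/fl and was listed at 0 in fl/fl. The other 7 of the 10 closest relatives were Gm7324, Rbmy and genes with Gm names matching like Rbmy, of which Gm21704 was listed at 0 in both genotypes and the others are not among the names of the table. Only 2 of the 10, Rbmx and Rbmxl1, had a mean high enough to be compared, and neither was past 1.5 times.

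The wider set of genes named Rbm, which encode RNA-binding proteins of many roles, was even between the genotypes. Besides Rbm3, the table holds 44 such names, of which 35 were compared. Of these, 0 were past 1.5 times in either direction, and their median log2 ratio was 0.0023, beside 0.0026 for all compared genes. The highest was Rbm18, at 13.4 FPKM in wt/fl against 16.8 in fl/fl (log2 ratio 0.30), and the lowest was Rbm14, at 12.8 and 9.52 FPKM (−0.39). The most abundant were Rbm39, a splicing factor gene (220 FPKM in wt/fl against 220 in fl/fl), and Rbm5, also a splicing regulator (171 and 173), followed by Rbm25 (72.5 and 77.3) and Rbm17 (66.7 and 69.8). Rbm3 had the highest level of the 36 compared Rbm genes in both genotypes. Ordered by log2 ratio together with Cirbp, the first 2 of these 37 genes were Cirbp and Rbm3. This order uses the same contrast that chose the pair, so nothing is read from it.

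Cold shock domain proteins bind RNA through a fold other than the RRM. Of the 8 names listed, 7 were in the table and 4 were compared, with 0 past 1.5 times. Ybx1, a major mRNA-packaging protein gene, was at 180 FPKM in wt/fl against 191 in fl/fl. Csda, also called Ybx3, was at 33.9 and 31.2 FPKM, and Carhsp1 at 12.3 and 12.5.

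Genes whose products modify, carry or control CIRBP and RBM3 were listed next, and all 14 were compared. They include the methyltransferase gene Prmt1, the import receptor gene Tnpo1, the kinase genes Gsk3a and Gsk3b and the casein kinase 2 subunit genes, which act on CIRBP, and Hnrnph1, Sp1, Clk1 and Clk4, which act on splicing or transcription. Of the 14, 0 were past 1.5 times, and the median log2 ratio was −0.046, with a range from −0.40 to 0.27. Hnrnph1, a splicing factor gene, was at 305 FPKM in wt/fl against 286 in fl/fl. Clk4, which encodes a kinase of splicing factors whose activity depends on temperature, was at 148 and 138 FPKM. Srsf5, a splicing factor gene, was at 309 and 372 FPKM (log2 ratio 0.27), and the helicase gene Ddx5 at 1002 and 946 FPKM.

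Among 9 mRNAs reported to be bound or stabilised by CIRBP or RBM3, 6 were compared and 0 were past 1.5 times, with 3 above and 3 below 0. Txn1, the thioredoxin gene, was at 56.1 FPKM in wt/fl against 67.6 in fl/fl (log2 ratio 0.26). Rtn3, whose product is linked to RBM3 in neurons, was at 48.7 and 50.4 FPKM. Rpa2, a single-strand DNA-binding protein gene, was at 24 and 22 FPKM, and Hif1a at 26.8 and 25. Tert, Ptgs2 and Vegfa had a mean under 1 FPKM.

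For the receptors of CIRBP outside the cell, 3 of the 4 listed genes were compared. Tlr4, the Toll-like receptor that binds it, was at 9.75 FPKM in wt/fl against 9.73 in fl/fl. Ly96, which encodes the MD-2 subunit of that receptor, was at 3.23 and 5.79 FPKM, with a log2 ratio of 0.68, and was the only one of the 3 past 1.5 times, beside 0.79% of all genes. Il6ra was at 8.89 and 7.39 FPKM, and Trem1 had a mean under 1 FPKM. The 11 listed genes of stress granule proteins, the aggregates that CIRBP enters, were all compared, and 0 were past 1.5 times. Their median log2 ratio was 0.081, with 8 above and 3 below 0. Pabpc1, the cytoplasmic poly(A)-binding protein gene, was at 462 FPKM in wt/fl against 517 in fl/fl, Caprin1 at 91.8 and 98.3, Ddx3x at 86.1 and 90.5, and G3bp1 at 63.1 and 66.8.

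The heat-induced chaperone genes, which respond to temperature in the opposite sense to Cirbp and Rbm3, stood on the other side of 0. Of 20 listed, 18 were compared, 10 were lower in fl/fl by at least 1.5 times, beside 1.53% of all genes, and 0 were higher by as much. Their median log2 ratio was −0.63, and 17 of the 18 were below 0. The exception was Hspa4, at 71.3 FPKM in wt/fl against 72.1 in fl/fl. Hspa8, the constitutive HSP70 gene, was at 1574 FPKM in wt/fl against 788 in fl/fl. Hsph1, an HSP110 gene, was at 129 and 40.3 FPKM (−1.65), and Hsp90aa1 at 387 and 208 FPKM (−0.89). These genes encode the core of the cytosolic folding machinery. Also past 1.5 times were Dnaja1 (130 and 70.9 FPKM), Ahsa1 (95.2 and 57.8), Chordc1 (81.8 and 40.4), Fkbp4 (81.6 and 53), Stip1 (54.3 and 29), Hspa4l (13.2 and 5.35) and Hspa1b (3.76 and 2.04), most of them cochaperone genes. Hsp90ab1 (936 and 647 FPKM) and Hspe1 (571 and 390) were lower by less than 1.5 times. The level of Hspa8 was 51.7 times that of Cirbp in wt/fl and 13.0 times in fl/fl. Over Rbm3 it was 4.85 times as high in wt/fl and 1.71 times in fl/fl. Hspa1a, at 1.27 FPKM in wt/fl against 0.777 in fl/fl, was not past 1.5 times on the scale of FPKM + 1. Hspb1 and Bag3 had a mean under 1 FPKM. The list and the pair were both chosen with earlier results of these data known, so nothing is read from these counts and ratios. Whether these chaperone values and those of Cirbp and Rbm3 are linked was not tested.

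**Figure D3:**
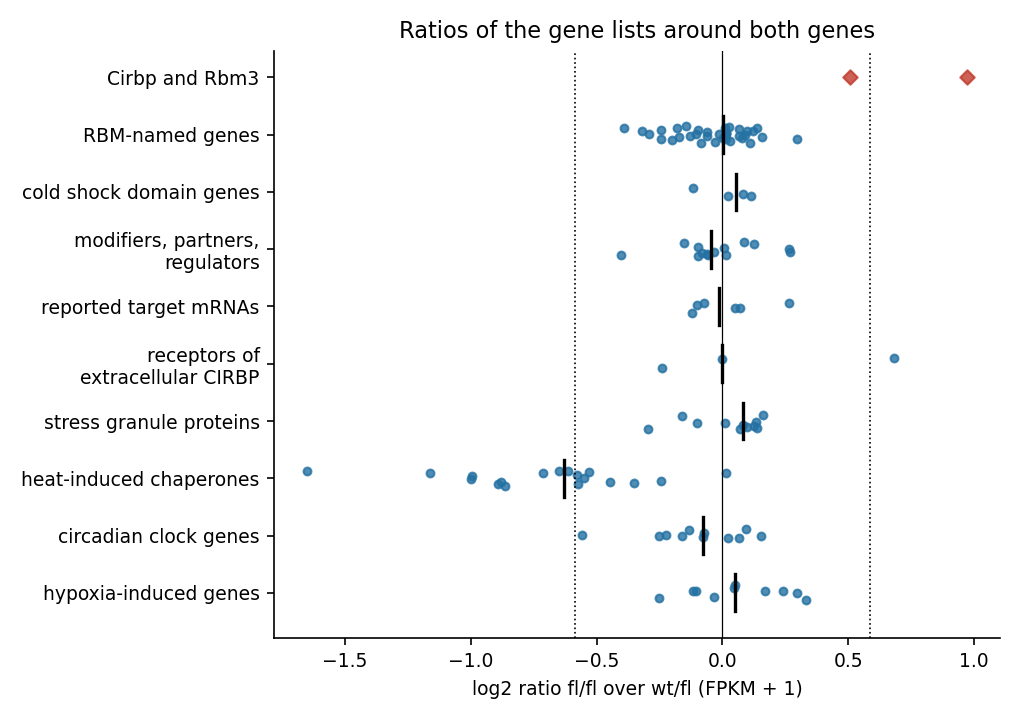
Points give the log2 ratio of fl/fl over wt/fl for the compared genes of each list, black bars the list's median, and dotted lines 1.5 times in either direction. Cirbp (0.97) and Rbm3 (0.51) lie at the right, the medians of 8 lists lie between −0.077 and 0.081, and the heat-induced chaperones have a median of −0.63.

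The genes beside Cirbp and Rbm3 on the chromosome did not share the ratio of the member as a group. Within 100 kb of Cirbp the table holds 11 other genes, 10 of them compared, with a median log2 ratio of 0.039. The nearest, 1600002K03Rik, begins 1290 bases after the Cirbp locus and was at 20.5 FPKM in wt/fl against 16.2 in fl/fl (−0.33). Midn, 9473 bases before it, was at 34.4 and 35.0 FPKM, and the kinase gene Stk11 at 57.9 and 58.2. Atp5d, a subunit gene of ATP synthase, was at 169 and 165 FPKM, and Ndufs7, of respiratory complex I, at 87.4 and 93.9. Sbno2, Dos, Mum1 and Dazap1 had log2 ratios between −0.031 and 0.11, and Efna2 had a mean under 1 FPKM. Gamt, a creatine synthesis gene 86497 bases away, was the only one of the 10 past 1.5 times, beside 0.79% of all genes, at a low level, with 1.04 FPKM in wt/fl against 3.49 in fl/fl.

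Within 100 kb of Rbm3 lie 7 other genes, 6 of them compared, with a median log2 ratio of 0.057. Wdr13, 6116 bases from the Rbm3 locus, was at 1.19 FPKM in wt/fl against 2.85 in fl/fl (log2 ratio 0.81) and was the only one of the 6 past 1.5 times, beside 0.79% of all genes. Tbc1d25, 6508 bases away on the other side, was at 11.5 and 11.2 FPKM. Was, the Wiskott-Aldrich syndrome gene of the actin cytoskeleton, was at 24.4 and 30.5 FPKM, and Suv39h1, a histone methyltransferase gene, at 10.1 and 9.63. Ebp was at 7.28 and 8.17 FPKM, Ftsj1 at 4.79 and 3.76, and Porcn was listed at 0 in both genotypes. No neighbour of either member overlaps it in the deposited table.

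**Figure D4:**
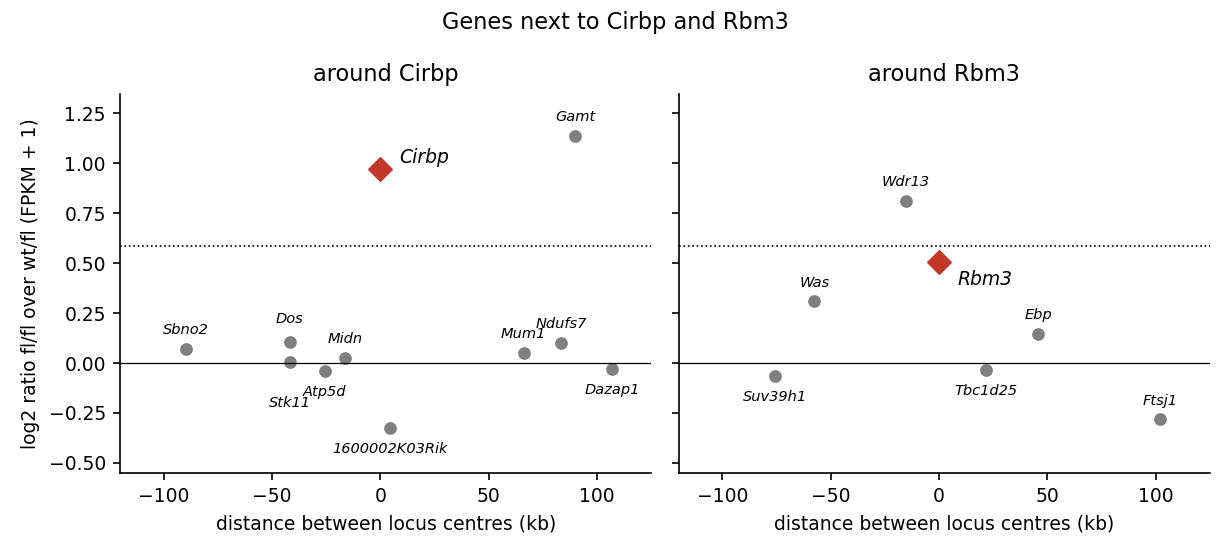
Points give the log2 ratio of fl/fl over wt/fl for the compared genes within 100 kb of Cirbp (left, 10 genes) and Rbm3 (right, 6 genes), by the distance between the centres of the loci in kb. The members (red) stand at 0.97 and 0.51, and 1 neighbour on each side of the picture, Gamt and Wdr13, lies above the dotted line at 1.5 times.

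The promoter table used here, from RefSeq (GRCm38.p6), holds 0 windows for Rbm3, whose promoter was therefore not searched. For Cirbp it holds 2 windows of 300 bases. The first ends shortly after a start site at 80167839 on chromosome 10 and is shown on the plus strand, from 80167589 up to the base before the first annotated transcript start inside it (chr10:80167589-80167777). This stretch lies within the span of Cirbp in GENCODE M21, which begins further upstream, at 80165985. It is printed because the cold response of Cirbp has been assigned to its promoter, and the capitals mark letters searched for by script:
Cirbp promoter: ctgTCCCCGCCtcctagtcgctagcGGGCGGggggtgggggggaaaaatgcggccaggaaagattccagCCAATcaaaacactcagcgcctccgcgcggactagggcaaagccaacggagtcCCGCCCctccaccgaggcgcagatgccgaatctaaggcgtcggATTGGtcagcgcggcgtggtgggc
In these 189 bases the GC box GGGCGG, which Sp1 binds, occurs 2 times over both strands, as does the CCAAT box CCAAT. The letters TCCCCGCC, described for this gene as a mild-cold response element, occur 1 time, and they were added to the search after the window had been seen. The second window of Cirbp holds GGGCGG 4 times and neither CCAAT nor TCCCCGCC. Of all 32851 promoter windows, searched on both strands, 35.7% hold GGGCGG, 37.4% hold CCAAT and 5.38% hold TCCCCGCC. GAANNTTC and TTCNNGAA, the paired units of the heat shock element, are in neither window of Cirbp, nor are the E-box CACGTG and the TATA box TATAAA. They are found in 7.86%, 8.52%, 7.15% and 13.6% of all windows. These are letter matches only, and binding was not measured.

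The labels and the sort were checked against marker levels. Myh9, the deleted gene, was at 50.6 FPKM in wt/fl against 21.1 FPKM in fl/fl, 41.7% of the haploinsufficient level. The 8 listed B cell markers summed to 5053 FPKM in wt/fl against 5272 in fl/fl, the 3 follicular markers to 817 and 1010, and Cd93, the AA4.1 antigen gated out in the sort, was at 3.28 and 4.23 FPKM. None of these 12 genes was past 1.5 times. Markers of other cells differed beside the values of Cirbp and Rbm3. Of 14 neutrophil markers, 13 were in the table, 9 were compared and 7 were lower in fl/fl by at least 1.5 times, beside 1.53% of all genes, with a summed level of 387 FPKM in wt/fl against 73.3 in fl/fl. The compared ones not past 1.5 times were Cxcr2 (5.99 and 4.96 FPKM) and Csf3r (2.32 and 1.51). Elane and Mpo, listed at 0 in fl/fl, had only 0.119 and 0.0916 FPKM in wt/fl and were not compared. The 5 of 11 red cell markers under a name of their own summed to 56.6 and 8.26 FPKM, of which Beta-s gave 52.0 and 7.08. The summed levels were 212 and 198 FPKM for T cell markers (0 of 5 compared past 1.5 times), 16.7 and 15.8 FPKM for macrophage markers (0 of 5) and 118 and 107 FPKM for plasma cell markers (2 of 4 lower, Sdc1 and Igj, beside the same 1.53%). Cd2 alone gave 188 and 176 FPKM of the T cell sum. Lck was at 14.5 and 14.5 FPKM, and Cd3d, the next, at 3.02 and 2.31. Most of the plasma cell sum came from Irf4 (60.8 and 58.9 FPKM) and Xbp1 (48.8 and 45.9). These sums thus rest mostly on a few genes and do not measure how much T cell or plasma cell RNA was present. The paper also gates B cell precursors by CD2, so Cd2 is not particular to T cells. Neutrophil markers made up 0.0650% of all FPKM in wt/fl against 0.0123% in fl/fl, Cirbp and Rbm3 together 0.0597% and 0.0876%. The part of these cells in the values of Cirbp and Rbm3 was not tested.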

How the data were processed

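RNA was amplified (Ovation RNA-Seq V2) and sequenced from 6 samples, 3 per genotype. Per the labels, the authors used Bowtie, TopHat and Cufflinks. Versions, options and annotation are not given in the sources used here. The authors' deposited table, laid out as by Cuffdiff, gives 1 pooled FPKM per entry and genotype. Its fold changes, test statistics, p-values and q-values are the authors' own comparison and were not used. The labels name mm10, but only 12.8% of 19118 loci overlapped the gene of that name on GRCm38, and chrUn_random occurs as a sequence name, so table positions are given as mm9 and were not converted.

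FPKM of the same gene were added up. Where both genotypes averaged 1 FPKM or more, genes were compared by log2 of the ratio of FPKM + 1, and called at 1.5 times. Pooled values allow no test, error or p-value, and read depth is unknown. The members and gene lists were chosen with earlier results of these data known. Named genes were Cirbp, Rbm3, Myh9, the 5 genes nearest each member in level, 10 closest relatives and neighbours within 100 kb, and in each of 9 lists the 4 most abundant genes and any past 1.5 times. Other genes outside the rule were named after their values were seen. The values of 1 gene that the rule names are not reported here. The relatives were to come from a protein table. Translated GENCODE M21 coding sequences were searched instead (BLAST 2.17.0+). Computations ran in Python 3.11.15 with pandas 2.3.3. They were tested on simulated data with noise-free changes of 2 times, which checks the arithmetic and not the calls under sampling error. The alternatives were pseudocounts of 0.1 and 0.5, other minimums, upper quartile scaling, quantile normalization, centring, single entries and a threshold of 2 times.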

Additional observations from a re-analysis of the deposited data

How the results depend on the processing

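With 1 pooled value per genotype, no value was called the same or different by replicate error. A ratio counted as moved when it crossed 1.5 times or shifted by more than 1.5 times, and a count when it shifted by more than 1.5 times. The log2 ratio of Cirbp lay between 0.96 and 0.99 under 6 alternatives, of which 1, its only entry alone, equals the main value by definition. That of Rbm3 lay between 0.36 and 0.60 under 7, and only entry P3592 alone (0.60) was past 1.5 times. The counts of 78 higher and 151 lower genes moved to 158 and 256 with a pseudocount of 0.1, to 26 and 67 at a mean of at least 5 FPKM, to 9 and 40 at 2 times, and to 327 and 385 over single entries. At a mean of at least 25 FPKM, chosen after seeing the data, they were 7 and 26. The median of the chaperones lay between −0.68 and −0.60 under 7 alternatives, and those of the other 8 lists between −0.12 and 0.085. The median of the Rbm genes changed sign around 0 (−0.014 to 0.0086), as did that of the receptors (−0.12 to 0.061). No paired analysis was possible because the columns hold pooled genotypes and not single samples. For the same reason no replicate could be left out.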

Other observations

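Cirbp is also known as a gene with a daily rhythm that binds clock mRNAs, and both Cirbp and Rbm3 are known to respond to low oxygen. Of 18 circadian clock genes listed, 11 were compared and 0 were past 1.5 times, with a median log2 ratio of −0.077 and 4 above and 7 below 0. Clock itself was at 10.3 FPKM in wt/fl against 9.76 in fl/fl, its partner Arntl at 11.2 and 10.5, and Per1 at 10.2 and 10.4. Bhlhe40, a repressor of the clock that also responds to other signals, was at 25.7 and 17.2 FPKM (log2 ratio −0.56). Of 15 hypoxia-induced genes listed, 10 were compared and 0 were past 1.5 times, with a median log2 ratio of 0.049 and 6 above and 4 below 0. Aldoa, a glycolytic enzyme gene, was at 177 FPKM in wt/fl against 210 in fl/fl (0.24), Ldha at 122 and 126, Pgk1 at 53.8 and 60.7 and Bnip3l at 44.4 and 43.4.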
